A study of Mus musculus with 12 samples.

Results

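The genes described here encode the proteins of the cytosolic ribosome. A gene was taken when its symbol began with Rpl or Rps and went on with a number (with or without a closing a or x), with p0, p1 or p2, or with a alone, and when it had at least 100 UMIs over all plates. A UMI (unique molecular identifier) is a random barcode that marks 1 captured mRNA molecule. The symbol rule found 76 of 19463 genes, and 74 of these reached the minimum: 29 genes of the small subunit and 45 of the large subunit. They held 17.1% of all UMIs in the 3088 wells (of 4608) with at least 1000 UMIs.

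The cells were LSK cells (blood progenitors without lineage markers but with Sca-1 and Kit on their surface, a set that includes the stem cells). They were sorted 1 to a well from fetal livers of the C57BL/6J strain at day 18.5. SORT-seq, which tags the 3′ end of each mRNA, was run on 12 plates. All groups share strain, organ and age. WT (3 plates) carries neither mutation, Rev1 knockout (3 plates) lacks the translesion polymerase scaffold Rev1, Pcna K164R (2 plates) is homozygous for a Pcna whose ubiquitin-accepting lysine is replaced by arginine, and the double mutant (4 plates) carries both changes. The labels give 3 sort dates, called sessions here. In session 1 the 2 Pcna K164R plates were sorted with WT replicate 1 and with replicates 1 and 2 of the double mutant. Session 2 had only replicate 1 of Rev1 knockout and replicate 3 of the double mutant, and the remaining 5 plates belong to session 3. The titles of the double mutant plates carry joined numbers and those of the other genotypes a single number, with no key. No label says that plates of 1 genotype are separate animals, so p-values measure only the spread between these plates, and that spread may be technical.

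Each ribosome joins a small subunit, which reads the mRNA, to a large subunit, which forms the peptide bond, and each protein is needed in about equal number. Ribosomal protein mRNAs are abundant, and many start with a run of pyrimidines that lets growth signals control their translation together. Blood stem cells are known for a low rate of protein synthesis, and red cell precursors are known to be sensitive to the loss of single ribosomal proteins, as in Diamond-Blackfan anaemia.

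Promoters of 54 of the 74 genes were in the RefSeq table used here (GRCm38.p6), as windows from 250 bases before to 50 bases after the annotated start. The windows of 4 genes are printed from 100 bases before to 50 bases after the start, because these genes differed most between stem-marked and erythroid-marked wells among those with a window: Rps2 and Rplp0 were lower in the stem-marked wells, Rps24 and Rpl39 were higher. Capitals mark a C followed by at least 5 pyrimidines that starts within 10 bases of the annotated start. The windows lie at chr17:24719963-24720112 (plus strand, Rps2), chr5:115559367-115559516 (plus strand, Rplp0), chr14:24490578-24490727 (plus strand, Rps24) and chrX:37085173-37085322 (minus strand, Rpl39).
Rps2: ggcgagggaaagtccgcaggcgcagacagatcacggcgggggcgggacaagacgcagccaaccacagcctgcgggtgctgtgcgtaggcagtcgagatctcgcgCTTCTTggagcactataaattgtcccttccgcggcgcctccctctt
Rplp0: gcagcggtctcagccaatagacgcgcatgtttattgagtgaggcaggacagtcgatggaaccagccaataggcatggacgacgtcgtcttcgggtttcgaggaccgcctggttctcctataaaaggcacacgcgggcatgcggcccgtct
Rps24: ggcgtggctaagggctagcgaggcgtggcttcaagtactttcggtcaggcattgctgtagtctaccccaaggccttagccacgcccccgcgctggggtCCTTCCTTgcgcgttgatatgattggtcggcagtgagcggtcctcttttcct
Rpl39: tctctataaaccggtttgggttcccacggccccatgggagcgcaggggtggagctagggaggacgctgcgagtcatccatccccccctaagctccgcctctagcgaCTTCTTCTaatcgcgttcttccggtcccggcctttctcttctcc

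A gene was counted for a motif when any of its windows held it. A pyrimidine run of this kind was present for 55.6% of the 54 genes and for 21.9% of all 27025 genes in the table. The ETS core CCGGAAG, searched on both strands, was present for 40.7% of the 54 genes and for 9.93% of all genes. The SP1 box GGGCGG was present for 63.0% against 38.2%, the YY1 core AAGATGGC for 7.41% against 3.19%, and the letters TATAAA for 11.1% against 15.7%. These matches describe letters in the windows and show neither binding nor its absence. Of the 4 printed genes, Rps2, Rps24 and Rpl39 had the pyrimidine run and Rplp0 did not, so the run was found in genes of both directions. Rps24 had 2 windows, and where a gene had several, a window with the run was printed first.

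The summed counts spread over a wide range of genes. Rpl4, a core protein of the large subunit whose loop lines the exit tunnel, had the highest count at 357063 UMIs, followed by Rpsa (327267) and Rps12 (309638). Rpl13 (268548) was also among the 5 highest. The lowest counts were those of Rpl30 (167), Rpl34 (319), Rpl37 (1496), Rps15a (1961) and Rplp2 (2264), while 67 of the 74 genes had more than 60000 UMIs. Each UMI stands for the 3′ end of 1 molecule, so these counts were not divided by length. Rps27 with 65 UMIs and Rpl26 with 14 UMIs fell below the minimum of 100, and Rpl30 and Rpl34 were the genes just above it. Ribosomal protein genes have many near-identical processed copies, and the counting of reads shared with a copy is not given in the sources used here. Of the 50-base words in the last 300 bases of their annotated transcripts, 76.3% for Rpl26 and 79.3% for Rpl30 also occurred in other genes, against 0% for Rpl37. Over the 76 genes the share of such words and the summed count were nearly unrelated (Spearman's rho -0.033, across genes, which are not independent replicates). The counts of genes that share their 3′ end with copies are uncertain for this reason.

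The tissue label was checked with a list of surface genes. Kit and Ly6a belong to the sort gate, while Cd34, Cd48, Ptprc and Ly6e do not. Their summed level was 890 to 1878 CPM (a gene's UMIs per 1000000 UMIs of the plate) in 11 plates and 338.1 CPM in double mutant replicate 3, where Ly6a, which encodes Sca-1, was at 0. Markers of hepatocytes summed to 25.0 to 65.1 CPM in the 11 plates and 28.2 CPM in double mutant replicate 3, and those of macrophages to 55.7 to 604 CPM and 202 CPM. The plates held between 212938 UMIs (double mutant replicate 3) and 11617420 UMIs (double mutant replicate 1). Rev1, after TMM scaling, was at 1.26 to 5.62 CPM in the Rev1 knockout plates and double mutant replicates 1 and 2, and at 10.5, 18.4 and 11.98 CPM in WT. It was at 13.4 CPM in the library labelled double mutant replicate 4, inside the WT range, and rested on 1 UMI in double mutant replicate 3. The double mutant comparisons thus include 1 library whose Rev1 level went against its label.

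Ribosomal protein genes made up a similar share of the UMIs in 11 of the 12 plates. In WT they held 15.6%, 15.9% and 18.1% of all UMIs (16.5% ± 1.38, SD, n = 3). In Rev1 knockout they held 17.8%, 18.0% and 18.3% (18.0% ± 0.294, SD, n = 3). In Pcna K164R they held 15.4% and 18.4% (16.9% ± 2.15, SD, n = 2). These 3 genotypes overlapped. In the double mutant they held 18.1%, 16.8%, 3.46% and 16.5% (13.7% ± 6.86, SD, n = 4), and without replicate 3 the mean was 17.1% ± 0.843 (SD, n = 3). The small subunit took 42.2% to 44.7% of the UMIs of the 74 genes in the 11 other plates and 45.3% in double mutant replicate 3. The balance of both subunits thus moved little, with the plate of the low share just above all others.

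**Figure D1:**
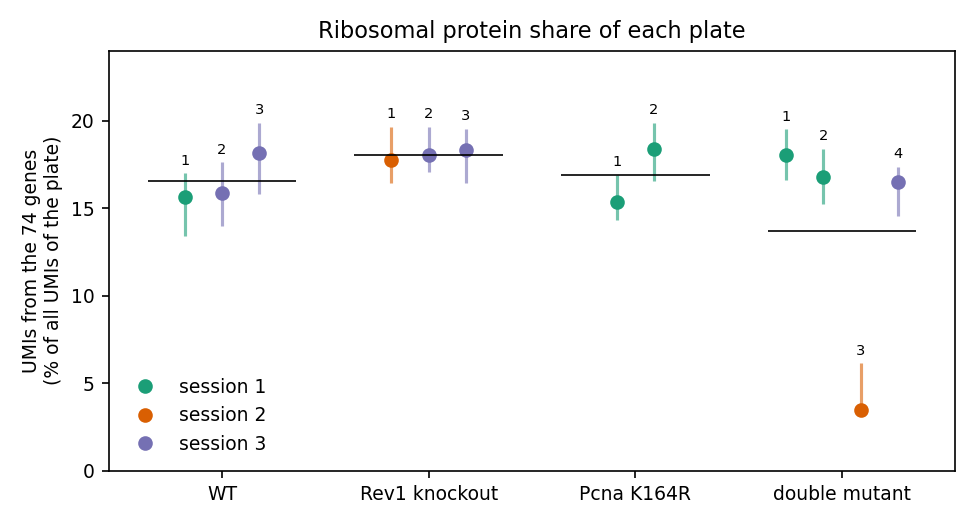
Share of all UMIs of a plate that came from the 74 genes, in percent, by genotype, with points coloured by sort session and numbered by replicate. Vertical lines run from the lower to the upper quartile of the wells and horizontal lines are group means. The 11 other plates lie between 15.4% and 18.4%, and double mutant replicate 3 lies at 3.46%.

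Double mutant replicate 3 stood apart in depth as well. It kept 82 wells with a median of 1730 UMIs, against plate medians of 7537 to 34853 in the 11 others. Among wells with 1000 to 3000 UMIs, the median share of ribosomal protein UMIs was 4.84% in its 65 such wells, while it was 9.54% to 20.7% by plate in the 212 such wells of the 11 other plates. In its 17 wells with at least 3000 UMIs the median share was 2.24%, against 15.1% to 18.4% elsewhere. In both ranges of depth the median share was thus lower in this plate than in the 11 others. Depth was not matched within a range, and its part in the low share was not tested. The mitochondrial share was 4.41%, against 1.34% to 4.06% elsewhere. Its part in the result was not tested. Of the 74 genes, 71 had at least 1 UMI there, 6 had fewer than 20, and Rpl30, Rpl34 and Rplp2 had 0, which allows a share of up to 4.07 per 10,000 ribosomal protein UMIs. The counts and medians of the comparisons between plates are given with and without it. The TMM scaling factor of this plate was 0.549, against 0.973 to 1.11 in the 11 others, so its scaled CPM values lie above the unscaled ones.

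No ribosomal protein gene passed the test between genotypes with all 12 plates. For the double mutant against WT, edgeR's quasi-likelihood test with Benjamini-Hochberg adjustment over 12221 genes called 0 of 74, with 4.21% of all tested genes called. At an unadjusted p under 0.05 the number was 2, and DESeq2 called 1 of the 74 (Rplp2) and 11.7% of all genes. The median log2 difference of the 74 genes was -0.06, beside -0.04 over all genes tested, and 29 of the 74 were above 0. When double mutant replicate 3 was left out, the median was 0.17, beside -0.03 over all genes, and 56 were above 0. The direction of the median thus turned with 1 plate. With the flow cell in place of the session as a term it was 0.31. No flow cell held both a double mutant and a WT plate, so this value came only through plates of the other genotypes. Markers of other cells moved in the same comparison, with none of a list in the opposite direction. Of 19 erythroid genes, 9 were higher. Lower were 8 of 14 stem cell genes and 2 of the 6 surface genes listed above with Kit and Ly6a. The part of this shift in the values of the ribosomal protein genes was not tested.

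Rplp2 had the smallest p of the 74 in this comparison. It encodes an acidic protein of the ribosomal stalk, the arm of the large subunit that recruits elongation factors. Its level, in CPM after TMM scaling, was 25.6, 49.4 and 150 in WT and 12.6, 14.0, 0 and 26.8 in the double mutant. The groups overlapped through WT replicate 1 and the library labelled double mutant replicate 4, and WT replicate 3 was far above the rest. The log2 difference was -1.52 ± 0.44 (SE, adjusted p = 0.0671, edgeR). Rplp2 had 2264 UMIs in all and is among the 5 lowest genes. Rpl31 had -0.86 ± 0.43 (adjusted p = 0.265). On the other side Rpl7a had 0.39 ± 0.26, Rpl34 0.94 ± 0.68 and Rpl18 0.24 ± 0.24, none near the threshold.

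Without double mutant replicate 3, edgeR called 2 of the 74 between the double mutant and WT, beside 17.5% of all genes tested. Rplp2 was lower, by -1.38 ± 0.41 (SE) on the log2 scale (adjusted p = 0.0409). Rps2 was higher, by 0.61 ± 0.18 (adjusted p = 0.0437). Rps2 encodes a small subunit protein at the entry of the mRNA channel. Its levels were 2921, 1672 and 2692 CPM in WT and 4316, 4621 and 3284 CPM in double mutant replicates 1, 2 and 4, so these plates did not overlap, while double mutant replicate 3 was at 694 CPM. When Rev1 knockout replicate 1 was left out, which leaves double mutant replicate 3 alone in its session, the call number was 3, with 17.4% of all genes. The third gene was Rpl3, with 0.42 ± 0.13.

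The difference of single genes from the common trend was tested in the same model with the summed UMIs of the 74 genes as library size. For the double mutant against WT this called 0 of 74 and 1.75% of all genes, with 6 of the 74 at an unadjusted p under 0.05; DESeq2 was not run on this scale. The fit that left out double mutant replicate 3 called 3 of 74 and 14% of all genes, all 3 lower in the double mutant. Among them were Rplp2 (-1.53 ± 0.38, adjusted p = 0.0235) and Rps24 (-0.51 ± 0.13, adjusted p = 0.025). Rps24, a small subunit gene mutated in some cases of Diamond-Blackfan anaemia, took 188, 195 and 204 per 10,000 ribosomal protein UMIs in WT and 143, 142, 145 and 129 in the double mutant. Every double mutant plate, replicate 3 included, lay below every WT plate. In Rev1 knockout Rps24 took 219, 201 and 198 per 10,000, and in Pcna K164R 138 and 165. With all 12 plates the difference between the double mutant and WT was -0.52 ± 0.17 (adjusted p = 0.128). The call of Rps24 thus needed the plate with the fewest UMIs to be left out, while the size of its difference hardly changed.

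For Rev1 knockout against WT, edgeR called 0 of 74 and 0% of all genes, with 9 of the 74 at an unadjusted p under 0.05. DESeq2 called 1 of the 74 (Rpl18) and 0.54% of all genes. The median log2 difference of the 74 genes was 0.44, beside 0.01 over all genes, and 68 of 74 were above 0. Double mutant replicate 3 shares its session with Rev1 knockout replicate 1 and so enters the session term, and without it the median was 0.15, with 60 of 74 above 0. That fit leaves Rev1 knockout replicate 1 alone in its session, so its Rev1 knockout values rest on replicates 2 and 3. The smallest p-values on the higher side were those of Rpl18 (0.88 ± 0.27), Rpl14 (0.93 ± 0.29) and Rpl36 (1.15 ± 0.39), with adjusted p-values of 0.503 and, for Rpl36, 0.521. Rpl18 was at 1824, 1027 and 1417 CPM in WT and at 1797, 1966 and 1946 CPM in Rev1 knockout. The 2 groups overlapped in Rpl18 through WT replicate 1. In the other direction Rplp2 had -0.81 ± 0.46 and Rpl30 -0.71 ± 0.79. Against the common trend 0 of 74 and 0% of all genes were called, with 9 of 74 at an unadjusted p under 0.05.

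For Pcna K164R against WT, edgeR called 0 of 74 and 0% of all genes, on both scales, and no member had an unadjusted p under 0.05. DESeq2 called 0 of 74 as well. The median log2 difference was -0.13, with 12 of 74 above 0, and 0.05 with 51 above 0 without double mutant replicate 3. Rpl29 had -0.63 ± 0.39, Rps24 -0.50 ± 0.39 and Rps19 -0.43 ± 0.35. On the higher side the smallest p-values were those of Rpl30 (1.02 ± 0.81), Rpl34 (0.98 ± 0.83) and Rpl7a (0.27 ± 0.33). Rpl30 and Rpl34 are the genes with the fewest UMIs. With 2 Pcna K164R plates, both in session 1 with 1 WT plate, this comparison had the least data of the 3.

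For the double mutant against Rev1 knockout, edgeR called 0 of 74 and 1.75% of all genes, with 16 of the 74 at an unadjusted p under 0.05. DESeq2 called 7 of 74, all lower in the double mutant, and 6.85% of all genes. The median log2 difference was -0.57, with 5 of 74 above 0. It was 0.00 without double mutant replicate 3, with 37 above 0, and 4 at an unadjusted p under 0.05. Rev1 knockout replicate 1 is then alone in its session, so Rev1 knockout rests on replicates 2 and 3 in that fit. With all plates and a flow cell term in place of the session the median was 0.18. Double mutant replicate 3 and the library labelled replicate 4 were alone on their flow cell, so that term takes up both. The direction of the median thus depended on double mutant replicate 3 and on that term, which are not separate here. Among the lowest p-values were those of Rps24 (-1.06 ± 0.32, adjusted p = 0.113) and Rpl36 (-1.23 ± 0.39, adjusted p = 0.121). In the other direction Rpl7a had 0.48 ± 0.27, Rpl30 1.10 ± 0.79 and Rpl34 0.92 ± 0.81. For the double mutant against Pcna K164R, edgeR called 0 of 74 and 0.0409% of all genes, with no member at an unadjusted p under 0.05. DESeq2 called 0 of 74. The median was 0.02, with 39 above 0, and without double mutant replicate 3 it was 0.08, with 49 above 0. Rpl29 had 0.73 ± 0.35, Rpl18 0.46 ± 0.28 and Rpl14 0.47 ± 0.30, while Rplp2 had -0.84 ± 0.47 and Rpl39 -0.54 ± 0.36. The comparisons share plates, so their values are not independent of each other.

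**Figure D2:**
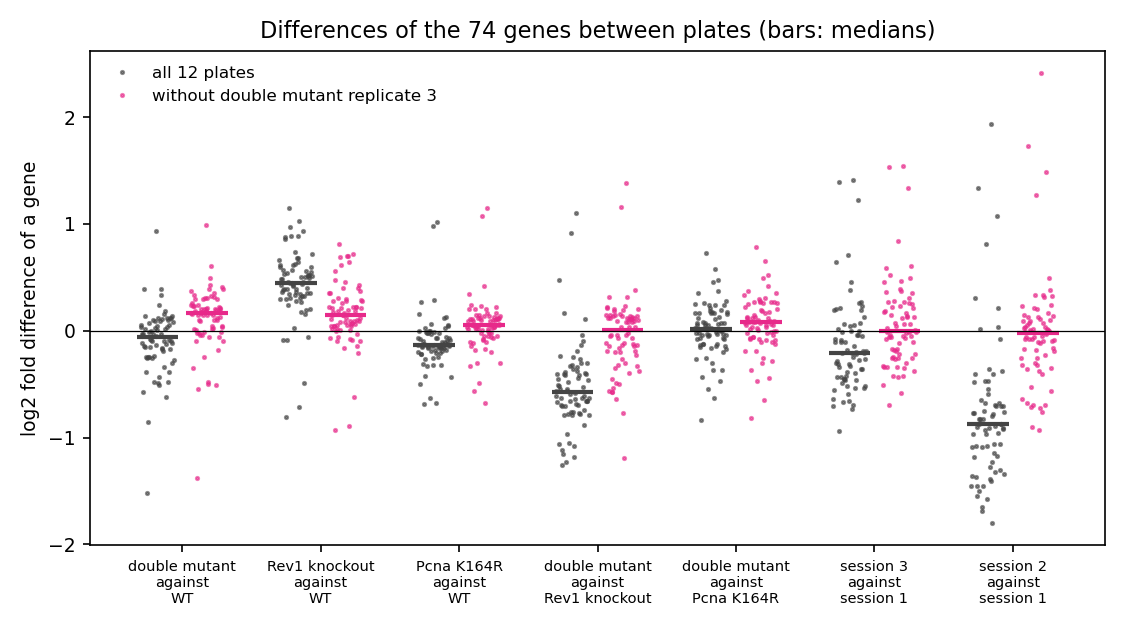
Log2 fold difference of each of the 74 genes in 7 comparisons, 1 point per gene, with all 12 plates (grey) and without double mutant replicate 3 (pink). Bars are medians. The median of the double mutant against Rev1 knockout moves from -0.57 to 0.00 and that of session 2 against session 1 from -0.87 to -0.02 when the plate is left out.

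Genes that work with the ribosome were taken from lists. Between the double mutant and WT, 6 of 40 ribosome biogenesis genes were higher and none lower past the threshold, beside 4.21% of all genes called in either direction (list median 0.51, all genes -0.04). Those with the smallest p were Mrto4 (1.19 ± 0.22, adjusted p = 0.0188), which helps to build the stalk, Bysl (1.11 ± 0.23), Rpf2 (0.80 ± 0.17) and Ltv1 (0.68 ± 0.16). Of 30 mitochondrial ribosomal protein genes, 3 were higher and none lower (median 0.56): Mrpl20 (1.02 ± 0.20), Mrpl16 (0.93 ± 0.16) and Mrps15 (0.65 ± 0.16). Of 25 translation factors and other genes with a pyrimidine start, none passed (median 0.17), with Eef1d at 0.70 ± 0.18 and Npm1 at 0.66 ± 0.20. Without double mutant replicate 3, where 17.5% of all genes were called, 20 of 40, 20 of 30 and 6 of 25 were higher and none lower (medians 0.55, 0.65 and 0.27, beside -0.03 over all genes). In that fit 13 of 19 erythroid markers were higher and 9 of 14 stem cell markers lower, and the part of this shift in the lists was not tested. In the 4 other genotype comparisons none of the genes in these 3 lists passed with all plates. Without that plate 2, 2 and 1 of them were higher in the double mutant than in Rev1 knockout, and none passed in the 3 remaining comparisons.

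Between sessions 3 and 1 a few ribosomal protein genes lay apart without passing the test with all 12 plates. EdgeR called 0 of 74 and 0.09% of all genes, with 7 of the 74 at an unadjusted p under 0.05. DESeq2 called 3 of 74, Rpl18 among them, and 2.1% of all genes. When double mutant replicate 3 was left out, edgeR called 1 of 74, beside 0.89% of all genes. Rplp2 was at 12.6, 14.0, 25.6, 24.1 and 17.7 CPM in session 1 and at 49.4, 150, 26.8, 40.0 and 54.1 CPM in session 3. Each session 3 plate lay above each session 1 plate, by little in the case of the library labelled double mutant replicate 4. The log2 difference was 1.39 ± 0.45 (SE, adjusted p = 0.284). Rpl7a had 0.65 ± 0.26 and, on the lower side, Rpl18 -0.73 ± 0.24 and Rpl4 -0.71 ± 0.27, none past the threshold.

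Relative to the summed UMIs of the 74 genes, edgeR called 0 of 74 and 0.00818% of all genes between sessions 3 and 1, with 11 of the 74 at an unadjusted p under 0.05. The fit without double mutant replicate 3 called 2 of 74, 1 in each direction, beside 0.749% of all genes.

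By CPM, 5 of the 74 genes did not overlap between sessions 1 and 3 (3 higher and 2 lower in session 3), beside 3.53% of all 12221 genes. Rplp2 and Rpl13a were among the higher ones and Rpl23 among the lower ones. Rpl13a was at 1742 ± 107 CPM in session 1 and 2395 ± 182 CPM in session 3 (SD, n = 5 each). Rpl23 was at 3763 ± 293 and 2992 ± 118 CPM. Relative to the 74 genes, 10 did not overlap, 5 in each direction, beside 2.69% of all genes. Rpl13a, Rpl32, Rpl35 and Rpl37a were among the higher ones, and Rpl17, Rpl23, Rpl4 and Rps7 among the lower ones. Genotypes are spread unevenly over sessions, and these counts take no account of it.

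For session 2 against session 1, edgeR called 0 of 74 and 0.679% of all genes, with 38 of 74 at an unadjusted p under 0.05, and DESeq2 called 15 of 74 and 5.32% of all genes. The median was -0.87, with 8 of 74 above 0. Without double mutant replicate 3 it was -0.02, with 34 above 0, and Rev1 knockout replicate 1 stands alone for session 2. Without Rev1 knockout replicate 1, where that plate stands alone for session 2, 57 of 74 were called, all lower, beside 14.4% of all genes. Rplp2 had 1.34 ± 0.67 and Rpl30 1.93 ± 1.04, against the direction of the other genes. On the lower side Rpl18 had -1.28 ± 0.32 and Rps2 -1.80 ± 0.47. Session 2 held 2 plates of 2 genotypes, so that this value is largely the contrast of double mutant replicate 3 with the other plates.

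Some genes varied in their share of the ribosomal protein UMIs more than others. Among 69 genes with at least 10000 UMIs, the SD over 12 plates of the log2 share had a median of 0.25, and of 0.18 without double mutant replicate 3. Among the 5 largest were those of Rpl31 (0.83), Rps28 (0.66), Rps21 (0.62) and Rpl7a (0.61). Without that plate 2 of 69 were above 0.5, with Rpl31 at 0.51, and Rps28 was at 0.25, Rps21 at 0.40 and Rpl7a at 0.36.

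Rpl31, which sits at the rim of the exit tunnel, took 15.7, 27.8 and 39.9 per 10,000 in WT and 21.01, 24.3 and 29.9 in Rev1 knockout. It took 15.9 and 19.4 in Pcna K164R and 14.2, 14.0, 4.1 and 14.2 in the double mutant. All double mutant plates lay below all plates of the other genotypes, and the lowest, replicate 3, rests on 3 UMIs. Rps28, a small protein near the mRNA exit, took 27.2 per 10,000 in double mutant replicate 3 and 87.9 to 151 in the other plates. Rps21 took 31.2 there and 67.0 to 154 elsewhere. Rpl7a went the other way, with 266 there and 53.8 to 128 elsewhere. Rps28, Rps21 and Rpl7a had the smaller SDs given above without that plate.

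**Figure D3:**
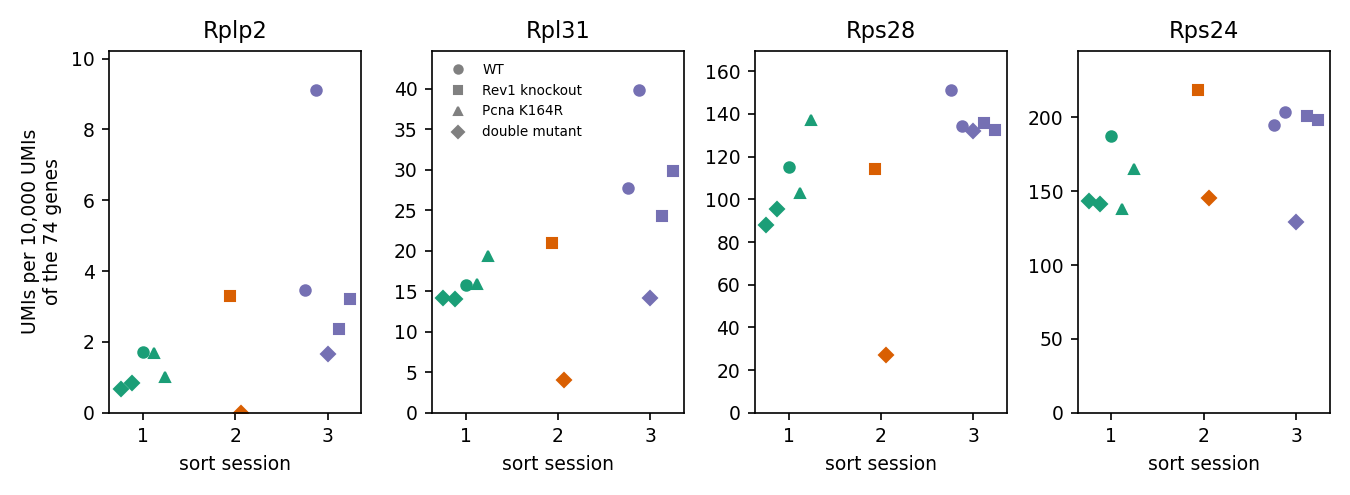
UMIs of Rplp2, Rpl31, Rps28 and Rps24 per 10,000 UMIs of the 74 genes (vertical axes, a scale of its own for each gene) by sort session, with 1 point per plate and a symbol for each genotype. Rps28 lies at 27.2 in double mutant replicate 3, and Rps24 at 129 to 145 in the 4 double mutant plates.

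Stem-marked and erythroid-marked wells were compared within plates. After each well was thinned at random to 1000 UMIs, a well counted as stem-marked with at least 1 UMI of Hlf, a transcription factor of blood stem cells, and none of Klf1, and as erythroid-marked with at least 1 UMI of Klf1, the main transcription factor of red cell genes, and none of Hlf. There were 847 Hlf wells, 106 Klf1 wells and 7 wells with both, and the rest had neither. The 7 plates with at least 5 wells of each kind entered the test, with 512 Hlf wells and 104 Klf1 wells: WT replicate 1, both Pcna K164R plates, Rev1 knockout replicate 3 and double mutant replicates 1, 2 and 4. Counts were summed per plate and kind of well, and the plate was a block in edgeR.

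The wells carried further markers of the kind they were called by. Of 10 tested stem cell genes other than Hlf, 9 were higher and none lower in Hlf wells (median log2 difference 3.60). Of 15 tested erythroid genes other than Klf1, all 15 were lower (median -4.08). All 6 surface genes used to check the tissue label were higher in Hlf wells, Ly6a by 3.15 ± 0.35 (SE) and Kit by 0.49 ± 0.11. The Klf1 wells were deeper, with medians of 27558 to 48053 UMIs by plate against 12450.5 to 31825 in Hlf wells, a ratio of 1.51 to 3.31 within plates. All 9 tested macrophage-list genes were lower in Hlf wells.

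The summed share of the ribosomal protein genes had close means in both kinds of well, 17.3% ± 1.42 of all UMIs in Hlf wells and 17.2% ± 1.47 in Klf1 wells (SD, n = 7 plates). The difference within plates ranged from -0.72 to 1.41 percentage points (mean 0.11 ± 0.83, SD) and was above 0 in 3 of 7 plates. In these summed UMIs the sign split by genotype. The double mutant plates (replicates 1, 2 and 4) gave 1.07, 1.41 and 0.11. The difference was -0.32 in WT replicate 1, -0.12 and -0.65 in the Pcna K164R plates and -0.72 in Rev1 knockout replicate 3. By the median well the split did not hold. Both Pcna K164R plates then had the higher share in Hlf wells (15.5% against 15.1% and 18.5% against 18.4%), as the double mutant plates did. The library labelled double mutant replicate 4, whose Rev1 level went against its label, had 15 Hlf and 12 Klf1 wells. The split was seen in the data and was not tested. Single genes differed. EdgeR called 33 of the 72 genes tested (Rpl30 and Rpl34 did not pass the filter on low counts), beside 56.9% of all 8295 genes tested. In Hlf wells 8 were higher and 25 lower, beside 28.2% of all genes higher and 28.7% lower. The members' share called, 45.8%, was thus below that of all genes, and the lower calls outnumbered the higher ones. The called members moved little: the median size of their log2 difference was 0.24, against 0.85 over all called genes, and Rps2 and Rpl8 were the 2 members above 0.5.

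Genes of the large subunit gave most of the calls lower in Hlf wells. Of 43 tested, 19 were lower and 3 higher, with a median of -0.13. Of 29 tested genes of the small subunit, 6 were lower and 5 higher, with a median of 0.01. Relative to the summed UMIs of the 74 genes, the large subunit had 13 lower and 12 higher (median -0.04) and the small subunit 3 lower and 12 higher (median 0.10), so the excess of lower calls in the large subunit depended on the scaling. The higher calls by CPM included Rps24, Rpl39, Rps28, Rps29, Rps4x, Rps7 and Rpl35a.

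**Figure D4:**
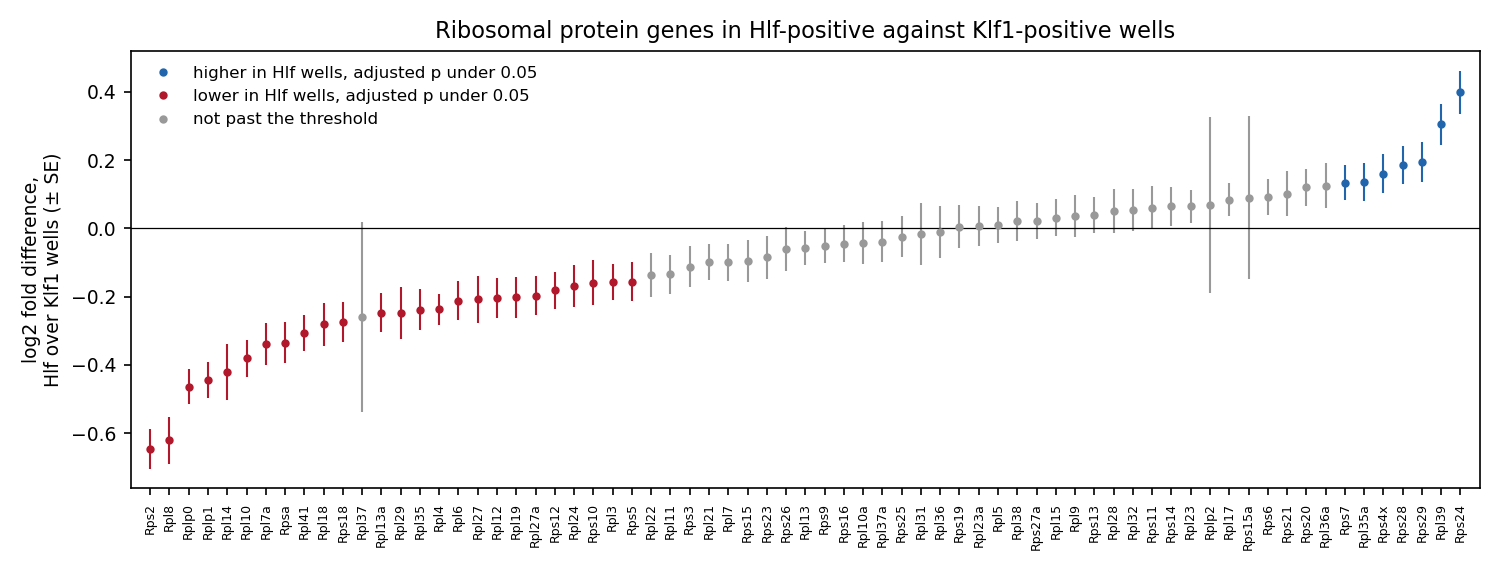
Log2 fold difference between Hlf-positive and Klf1-positive wells for 69 of the 72 tested genes, ordered by value, with SE bars, from 7 plates. Red points are the 25 genes lower in Hlf wells and blue points 7 of those higher, past an adjusted p of 0.05. Values run from -0.65 for Rps2 to 0.40 for Rps24.

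Rps2 differed most. Over the 7 plates its lowest, median and highest levels were 2250, 2920 and 4030 CPM in Hlf wells and 4126, 5007 and 5772 CPM in Klf1 wells. The 2 sets did not overlap even across plates, and Rps2 was lower in Hlf wells in 7 of 7 plates. The log2 difference was -0.65 ± 0.06 (SE, adjusted p = 1.29e-08). Rpl8, a protein next to the peptidyl transferase centre, was at 1134, 1489 and 1645 CPM in Hlf wells and at 1964, 2100 and 2627 CPM in Klf1 wells. It was lower in 7 of 7 plates, again without overlap, by -0.62 ± 0.07 (adjusted p = 1.85e-07).

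The stalk proteins followed. Rplp0, which anchors the stalk, was at 2410, 3244 and 3570 CPM in Hlf wells and 3682, 4443 and 4797 CPM in Klf1 wells, a log2 difference of -0.46 ± 0.05 (adjusted p = 2.64e-07). Rplp1, which binds Rplp0 as a pair with Rplp2, was at 2525, 3834 and 4450 CPM against 3666, 5312 and 6444 CPM, a difference of -0.45 ± 0.05 (adjusted p = 5.71e-07). Both were lower in Hlf wells in 7 of 7 plates. Their partner Rplp2, with few UMIs, had 0.07 ± 0.26 (adjusted p = 0.84). Further genes lower in Hlf wells were Rpl14 (-0.42 ± 0.08), Rpl10 (-0.38 ± 0.05), which joins the large subunit late in its maturation, Rpl7a (-0.34 ± 0.06), Rpsa (-0.33 ± 0.06), Rpl41 (-0.31 ± 0.05) and Rpl4 (-0.24 ± 0.04).

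In the other direction Rps24 was at 2262, 2891 and 3777 CPM in Hlf wells and at 1534, 2123 and 3141 CPM in Klf1 wells. It was higher in 7 of 7 plates, by 0.40 ± 0.06 (adjusted p = 2.56e-05), although the 2 sets overlapped across plates. Rpl39, a short protein that lines the exit tunnel, was at 1432, 1762 and 2887 CPM against 1243, 1528 and 2165 CPM, a difference of 0.31 ± 0.06 (adjusted p = 0.000228). Rps29 (0.19 ± 0.06), Rps28 (0.19 ± 0.06), Rps4x (0.16 ± 0.06), Rpl35a (0.14 ± 0.06) and Rps7 (0.13 ± 0.05) were higher by less.

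**Figure D5:**
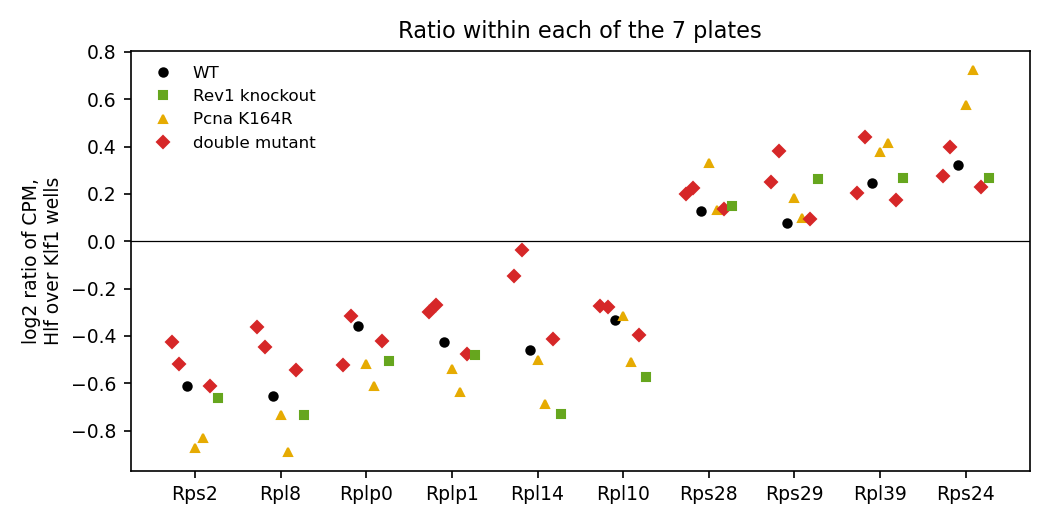
Log2 ratio of CPM in Hlf-positive over Klf1-positive wells for 10 genes (horizontal axis), with 1 point for each of the 7 plates and a symbol for each genotype. Rps2 lies between -0.87 and -0.43 and Rps24 between 0.23 and 0.72, and the 7 plates share the sign of each gene shown.

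Relative to the summed UMIs of the 74 genes, 40 of 72 were called, 24 higher and 16 lower in Hlf wells, beside 55.7% of all genes (31.7% higher and 24.1% lower). The split of higher against lower calls thus depended on the scaling. With both scalings 24 genes were called in the same direction, 8 higher and 16 lower. Rps2 had -0.55 ± 0.04 and Rpl8 -0.53 ± 0.05 on this scale, and Rps24 0.49 ± 0.06 and Rpl39 0.40 ± 0.05. Rps6 (0.19 ± 0.04) and Rpl17 (0.18 ± 0.04) were called higher on this scale and not on the other.

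The 2 kinds of well differed in depth, and the fit was repeated on thinned wells. Thinning evens the depth, and it also lowers all counts and the number of genes tested. The part of the depth gap in the counts of called genes was thus not tested. When each well was thinned to 1000 UMIs before summing, 275 genes remained, and 7 of 67 ribosomal protein genes were called, 4 higher and 3 lower, beside 24% of all. Rps2 (-0.57 ± 0.11), Rpl8 (-0.48 ± 0.14), Rplp1 (-0.32 ± 0.10) and Rps24 (0.74 ± 0.12) kept their direction and their call, joined by Rps14, Rpl32 and Rpl23, while Rpl4 turned to 0.12. Relative to the 74 genes the thinned fit called 5 of 67, beside 24.4% of all. In the 3 double mutant plates alone 16 of 72 were called, 8 in each direction, beside 42.1% of all genes, and in the 4 other plates 32, of which 25 were lower, beside 46.6%. Without Pcna K164R replicate 2 the number was 21, beside 52.9% of all genes.

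Whether the difference between the wells changed with genotype was tested as an interaction of well kind with double mutant against other plates. EdgeR called 0 of 72 and 0% of all genes, with 20 of the 72 at an unadjusted p under 0.05. DESeq2 was not run on it. The interaction value was above 0 in 67 of 72 genes, with a median of 0.12, beside 0.02 over all genes. The smallest p was that of Rps23 (0.33 ± 0.09, adjusted p = 0.378).

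Of the 25 genes lower in Hlf wells, 20 had a promoter window, and 13 of these held the pyrimidine run and 9 the ETS core. Of the 8 higher genes 6 had a window, 3 with the run and 2 with the ETS core. Of the 39 genes not called 27 had a window, 13 with the run and 10 with the ETS core. The letters were thus found in all 3 sets.

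Ribosomal proteins outside the symbol rule and close paralogs were measured as well. Of 5 detected ribosomal proteins with other names, Fau (-0.32 ± 0.06), which carries a small subunit protein fused to a ubiquitin-like part, and Gnb2l1 (-0.27 ± 0.06), the scaffold also called Rack1, were lower in Hlf wells, and Rps4y2 (0.43 ± 0.17) was higher. Rps3a1 had -0.03 ± 0.05. Of 4 tested paralogs, Rpl36al (-0.66 ± 0.08), Rps27l (-0.59 ± 0.10) and Rpl7l1 (-0.27 ± 0.10) were lower and Rpl22l1 had -0.22 ± 0.33. Rps27l, a known target of p53, was at 269, 358 and 296 CPM in WT and at 513, 396, 156 and 585 CPM in the double mutant, a difference of 0.59 ± 0.31 (adjusted p = 0.282). Replicate 3 was the 1 double mutant plate below the WT plates, and without it Rps27l was higher in the double mutant by 0.80 ± 0.20 (adjusted p = 0.0244). Rpl39l, Rpl10l and Rpl3l were at most at 23 UMIs in any plate.

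Genes that build ribosomes were mostly lower in Hlf wells. Of these, 31 of 40 were lower and none higher (median -0.61, beside -0.00 over all genes), where 28.7% of all genes tested were lower and 28.2% higher, among them Nolc1 (-1.22 ± 0.13), Nhp2 (-1.05 ± 0.11), Gnl3 (-0.82 ± 0.10) and Ncl (-0.78 ± 0.08), which encodes nucleolin. Of 30 mitochondrial ribosomal protein genes 25 were lower and none higher (median -0.56), led by Mrpl52 (-1.48 ± 0.11), Mrpl20 (-1.09 ± 0.10), Mrpl12 (-1.22 ± 0.13) and Mrpl18 (-0.86 ± 0.10). Of 25 translation factors and other genes with a pyrimidine start, 16 were lower and 2 higher (median -0.33). Pabpc4 (-1.58 ± 0.15), Eef1d (-0.79 ± 0.09) and Eef2 (-0.58 ± 0.07) were among the lower ones. The 2 higher ones were Vim (3.52 ± 0.21), which encodes the filament protein vimentin, and Tpt1 (0.34 ± 0.05). The median of the 72 ribosomal protein genes in the same fit was -0.05.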

How the data were processed

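The authors deposited, for each plate, whole-number counts of observed UMIs per gene and well, read counts (not used here), and transcript counts. The latter are expected counts, which per the file values the authors made from the deposited UMI counts by a correction for random barcodes drawn more than once. The submitters' processing notes name BWA 0.7.15 and the builds mm10 and GRCm38, with no role. No source used here gives the counting step or the annotation.

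A well was kept when its UMIs, ERCC spike-ins aside, reached 1000 (3088 of 4608), and their counts were summed per gene and plate. Genes were tested in R 4.3.3 by edgeR 4.0.16 after TMM scaling and its default filter (12221 genes left), with genotype and session as terms in 1 fit of all 12 plates, the quasi-likelihood test and Benjamini-Hochberg adjustment over all genes tested at a threshold of 0.05. Values with ± beside a log2 difference are SE. CPM values are TMM-scaled, except summed marker levels. DESeq2 1.42.0 was an alternative. Plates of a genotype were compared by a chi-square statistic per degree of freedom, and the smallest was 8.70, so none were near-identical. The test was also run on simulated data, drawn with the depth of these plates but with no session or plate effect. That run does not show how the test behaves where such effects are present. No doublet caller was run on these sorted wells.

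The 74 genes, the lists, the tests and the alternatives were chosen with earlier results of these data known. The text names, per comparison, up to 10 genes per direction with the smallest p past the threshold (3 as values where fewer than 3 passed), the 5 most and 5 least abundant, the 5 with the largest SD of the share, ribosomal proteins outside the symbol rule and paralogs, and up to 4 genes of each other list. Genes named under alternatives or for not overlapping between sessions were chosen after their values were seen. Some genes that these rules would name are counted but not reported here.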

Additional observations from a re-analysis of the deposited data

Results flagged for a closer look

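In groups of 4 or 5 plates, 57 sets of values were searched for 1 plate far from the others. For independent sets chosen beforehand, chance alone would mark about 1 in 20. The search marked 10. These sets share plates, and the genes marked are ones named above from the same plates, so that rate does not apply to them. The share of UMIs from ribosomal protein genes was 3.46% in double mutant replicate 3, and the share of Rpl31 was 4.07 per 10,000 ribosomal protein UMIs in the same plate. Rps19 took 78.2 per 10,000 in double mutant replicate 1, below the other double mutant plates. Within session 1, Rpl14 took 48.2 in Pcna K164R replicate 2, below the other plates. Within session 3, the library labelled double mutant replicate 4, the only double mutant plate of that session, had the highest shares of Rpl34 (0.858) and Rpl7a (127.6) and the lowest of Rpl39 (80.6) and Rps24 (128.9). Rplp2 at 9.13 in WT replicate 3 and Rps28 at 151 in WT replicate 2 were the highest of session 3.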

How the results depend on the processing

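DESeq2, where it was run, and the lack of a filter on low counts each moved most counts of called ribosomal protein genes between plates. Leaving out double mutant replicate 3, the shallowest plate, moved those of the double mutant against WT and of session 3 against session 1. The main counts between plates were 0. For the double mutant against WT the count was 1 with DESeq2, 2 with no filter, 1 with no session term and 2 without session 2. For Rev1 knockout against WT it was 1 with DESeq2 and 4 with no filter. For the double mutant against Rev1 knockout it was 7 with DESeq2, 10 with no filter and 2 with wells thinned to 1000 UMIs. For session 3 against session 1 it was 3 with DESeq2, 3 with no filter and 1 without session 2. For session 2 against session 1 it was 15 with DESeq2, 27 with no filter and 1 with thinned wells. Off the common trend, the double mutant against WT gave 2 with no filter and 3 without session 2. On that scale session 3 against session 1 gave 3 with no filter and 2 without session 2. Between Hlf and Klf1 wells the count of 33 became 7 with thinned wells and 16 in double mutant plates alone, and the count of 40 off the trend became 5 with thinned wells. The shares of all genes called are given above for the DESeq2 counts and for the counts between wells. For the other settings of this paragraph they are not given here, so those counts show only how the number moved. Session 3 held 1 double mutant plate, the library labelled replicate 4, whose Rev1 level went against its label. No counts are given for session 3 alone. The single sessions, the fit without session 2, the subsets of plates for the wells, the transcript counts there and the gene lists without double mutant replicate 3 were added after seeing the data.

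Leaving out 1 replicate each time gave 0 to 3 for the double mutant against WT on both scales, 0 to 1 (off the trend 0 to 2) for session 3 against session 1, 0 to 57 for session 2 against session 1, and 21 to 32 (off the trend 32 to 38) between the wells. The other counts stayed at 0. The cause of these moves was not tested.

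Some single log2 values changed sign. Genotypes are spread unevenly over flow cells, and no flow cell held both a double mutant and a WT plate. With a flow cell term, the double mutant against WT gave Rpl34 -0.94, Pcna K164R against WT gave Rpl30 -0.86, Rpl34 -0.34 and Rpl29 0.025, and the double mutant against Rev1 knockout gave Rpl30 -1.51, Rpl34 -1.12 and Rpl36 0.21. With no session term, Rpl30 was 0.027 in Rev1 knockout against WT and Rpl7a -0.16 in Pcna K164R against WT. In session 1 alone, the double mutant against WT gave Rpl34 -0.057, Rpl31 0.10 and, off the trend, Rpl7a -0.14. With thinned wells Rpl4 was 0.12 (off the trend 0.068). Leaving out 1 replicate each time, Rplp2 in Rev1 knockout against WT ran from -1.14 to 0.091, and the double mutant against WT gave Rpl34 between -0.19 and 1.99. In Pcna K164R against WT, Rpl30 ran from -0.20 to 1.95 (off the trend -0.37 to 2.19), Rpl34 from -0.90 to 2.41 (off the trend -1.09 to 2.67) and Rpl7a from -0.19 to 0.64. In the double mutant against Rev1 knockout, Rpl30 ran from -0.099 to 1.44 and Rpl34 from -0.73 to 1.40. In session 2 against session 1, Rplp2 ran from -9.09 to 1.73 and Rpl30 from -6.34 to 2.50. Both low ends come from the fit whose session 2 plate had 0 UMIs of the gene, so they are no bound. Rpl30, Rpl34 and Rplp2 are among the 5 genes with the fewest UMIs.

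No paired analysis was possible because replicate numbers follow accession order and only name a plate. Between the wells the plate itself was the block.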
